A study of Mus musculus with 11 samples.

Results

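Granule cells are the small excitatory neurons of the cerebellar cortex, and their genes are described here in libraries that were meant to hold Purkinje cell RNA. The members are 10 genes known from granule cells (Neurod1, Cbln1, Cbln3, Etv1, Fat2, Pax6, Slc17a7, Grin2c, Zic1 and Zic2), matched by gene symbol, and all 10 were found once among the 55421 genes counted. Granule cells send parallel fibres to the dendrites of Purkinje cells, where they release glutamate and secrete the synapse organiser cerebellin. They keep a set of transcription factors from their origin in the rhombic lip into adult life and are by far the most numerous neurons of the cerebellum.

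Ribosome-bound RNA was sequenced from whole cerebellum of mice on postnatal day 56, with 1 library per animal tag. In the RiboTag method an antibody against an HA tag on the ribosomal protein Rpl22 pulls down ribosomes of the cells in which Cre has acted. The 4 KO libraries came from animals with Pcp2Cre, which acts in Purkinje cells, floxed Tie2 on both alleles and tagged Rpl22 on both alleles. The 7 WT libraries came from animals that carried the same Cre and the same tagged Rpl22 without the floxed Tie2. The labels give 3 batches. Batch 1 held KO F371 and M374 and WT M379, batch 2 held KO M390 and WT M386, and batch 3 held KO M456 and WT F473, M476, M477, M479 and M480. The supernatant kept as input was not analysed here, so levels in the pull-down were not set against those of the whole tissue.

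Library totals were 2.58 to 4.20 M reads in genes in KO (3.38 ± 0.660, SD, n = 4) and 4.09 to 5.14 M reads in WT (4.57 ± 0.394, SD, n = 7). Tek, which encodes Tie2, had 0 to 14 reads per KO library and 0 to 40 per WT library and could not check the labels (log2 fold change 0.87 ± 0.95, SE, edgeR quasi-likelihood test with Benjamini-Hochberg adjusted p = 0.522). The 20 genes of a Purkinje cell list were all measured, and their summed level was 7577 to 9934 CPM in KO and 7777 to 9041 CPM in WT, where CPM is the usual depth-scaled read count, here adjusted by TMM factors. Of these 20 genes 4 were called higher (Foxp2, Pvalb, Car8 and Calb1) and 3 lower (Lhx1, Cacna1g and Dner) in KO, where over all genes tested 10.9% were called higher and 13.4% lower by the same test. Nothing beyond the animal tags says how the replicates were kept apart, so p-values measure the spread between these libraries.

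The granule cell genes were present in each library at a low share. The summed reads of the 10 genes made up 0.0433% to 0.125% of all reads in genes in KO and 0.0313% to 0.0662% in WT. The largest share was that of KO M456, at 0.125% (95% exact binomial interval 0.121% to 0.129%), and the smallest that of WT M379, at 0.0313% (0.0297% to 0.0331%). These intervals cover counting error only. The summed level was 546 and 869 CPM in KO of batch 1 against 315 CPM in WT. It was 427 CPM in KO and 363 CPM in WT of batch 2. In batch 3 it was 1289 CPM in KO, against 478 to 670 CPM in the 5 WT libraries. The KO libraries were thus above the WT libraries of their own batch in all 3 batches, and KO M390 of batch 2 was below 5 WT libraries of batch 3. Set against the summed Purkinje list, the 10 genes came to 9.11% ± 3.48 in KO and 5.82% ± 1.30 in WT (SD, n = 4 and 7). In bulk samples, a larger share of granule cell material and more RNA per granule cell cannot be told apart, and neither can be told apart here from expression in the tagged cells.

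**Figure D1:**
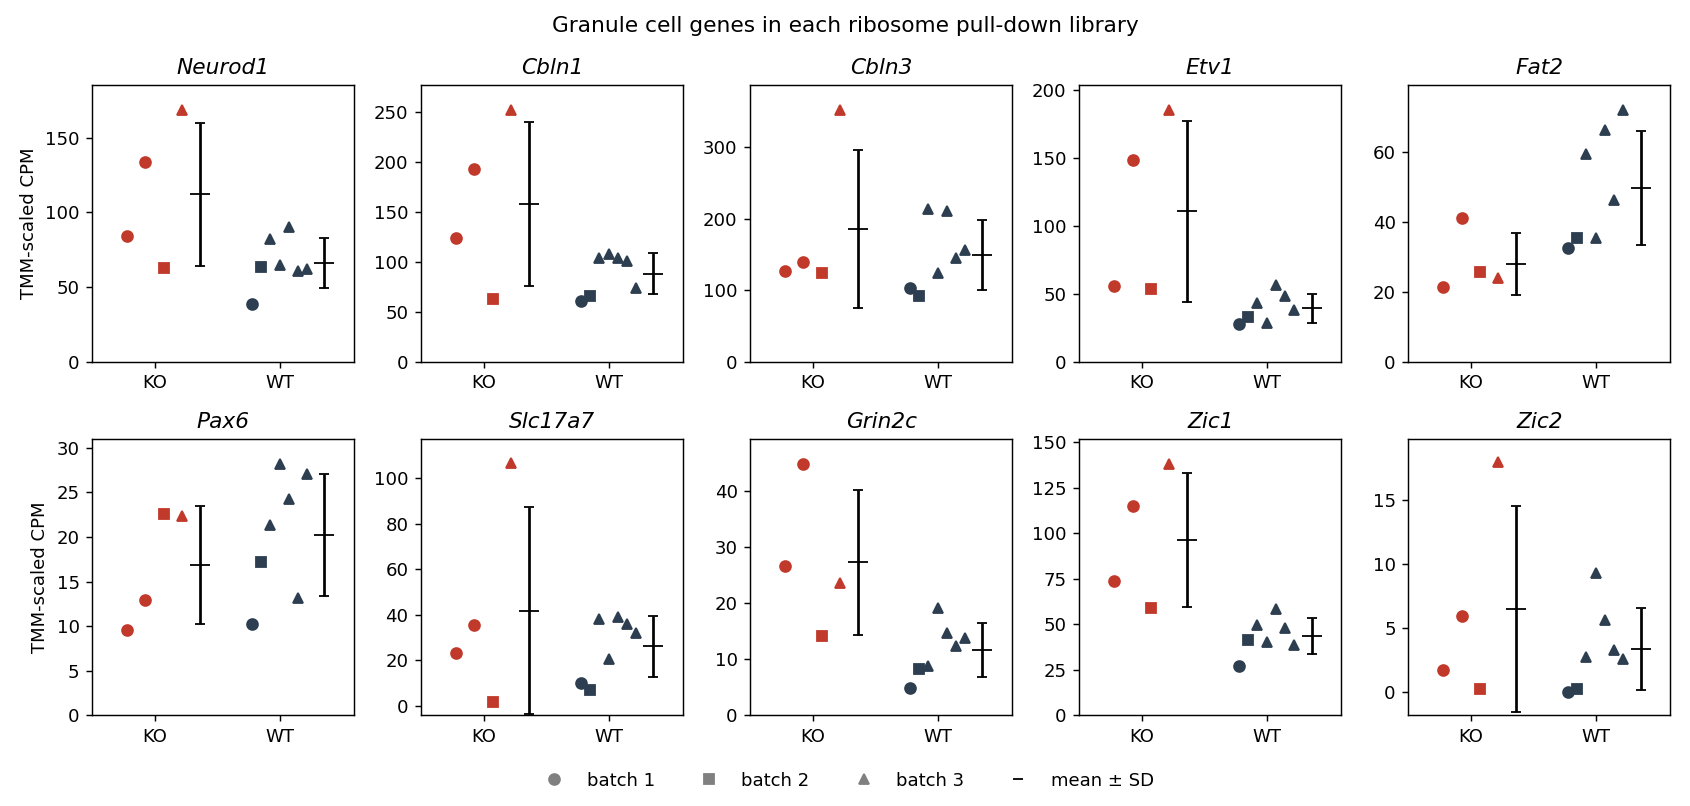
Level of each of the 10 granule cell genes (TMM-scaled CPM, linear axes) in every library, KO left and WT right, with 1 point per library, the marker shape giving the batch, and bars the mean and SD. Zic1 is the gene whose KO libraries (58.7 to 138 CPM) all lie above the WT libraries (27.1 to 58.4 CPM), and KO M456 of batch 3 is the highest library for 7 of the 10 genes.

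In KO against WT, 7 of the 10 genes rose and none fell. The 7 were the transcription factor genes Etv1, Zic1, Zic2 and Neurod1, the cerebellin genes Cbln1 and Cbln3, and the NMDA receptor subunit gene Grin2c. Over the 13375 genes tested, 10.9% were called higher and 13.4% lower at an adjusted p under 0.05 (quasi-likelihood test in edgeR, adjusted for batch). The members and the lists below were chosen with earlier results of these data known. Counts set beside the share of all genes are therefore a description. The 10 genes had a median log2 fold change of 1.07, and all genes tested one of -0.02. At an unadjusted p under 0.05 edgeR had 8 genes higher and 0 lower, and the Wald test of DESeq2 called 8 higher and 0 lower, against 14.4% of all genes higher. The edgeR count of genes called higher fell furthest, together with that of all genes, without KO M456 or without WT M379. When any other single library was left out it was 6 to 8, with 2547 to 4632 of all genes called. Without KO M456 it was 0 by edgeR, with 6 genes higher and 0 lower at an unadjusted p under 0.05. In that fit calls over all genes, in both directions, numbered 335 in place of 3257, and 0.465% of all genes were called higher. The median log2 fold change of the 10 genes was then 0.78, with 9 of 10 positive. DESeq2 called 3 of the 10 without M456, with 1312 of all genes in place of 4174. Without WT M379 edgeR called 3 of the 10, with 522 of all genes (2.3% higher) and a median of 0.89 over the 10. With the library total as a further covariate it was 0 by edgeR and by DESeq2, with 3 genes higher at an unadjusted p under 0.05 in both, and over all genes edgeR called 0 and DESeq2 99.

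Among the transcription factors, Zic1, a zinc finger protein of cerebellar granule neurons and other rhombic lip and interneuron lineages, had the clearest separation. It stood at 73.6 and 115 CPM in KO of batch 1, 58.7 CPM in batch 2 and 138 CPM in batch 3, against 27.1 to 58.4 CPM (median 41.4) in WT. The lowest KO library lay just above the highest WT library, and this was the single member without overlap, where 6.19% of all genes tested had every KO library above every WT library. In the fit it was higher by 1.37 ± 0.22 (log2, SE; edgeR adjusted p = 0.00219), and the within-batch log2 ratios of means were 1.78, 0.50 and 1.55 in batches 1, 2 and 3. Zic1 (ENSMUSG00000032368) lies on chromosome 9 from 91358058 to 91365768 in GRCm38, where its RefSeq span overlaps that of Zic4. The strand setting of the counting is not given in the sources used here, so reads from the overlap cannot be assigned with certainty.

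Etv1, an ETS family factor of maturing granule cells, was called with the next smallest p. It had 55.4, 148, 53.6 and 185 CPM in KO F371, M374, M390 and M456, against 27.6 to 56.2 CPM (median 38.1) in WT. F371 and M390 lay inside the WT range at its upper end, and M374 and M456 lay far above it. In the fit KO was higher by 1.71 ± 0.29 (log2, SE; edgeR adjusted p = 0.00234). Within batches 1, 2 and 3 the log2 ratio was 1.87, 0.70 and 2.10. The gene (ENSMUSG00000004151) spans 38780082 to 38870483 on chromosome 12.

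Neurod1, a basic helix-loop-helix factor needed for granule cell survival, had 84.0, 134, 62.7 and 169 CPM in KO F371, M374, M390 and M456. The WT libraries had 38.8 to 90.4 CPM (median 63.7). KO M390 sat beside WT M386 of its batch, and the within-batch log2 ratios were 1.48, -0.02 and 1.22. Over all libraries KO was higher by 1.00 ± 0.23 on the log2 scale (SE; edgeR adjusted p = 0.00775). The gene (ENSMUSG00000034701) lies on chromosome 2 from 79452637 to 79456636.

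Zic2, a close relative of Zic1, was counted so rarely that its values are uncertain. It had 6, 20, 1 and 45 reads in KO F371, M374, M390 and M456, and 0 to 40 reads in WT. WT M379 had 0 reads, which allows a level of up to 0.719 CPM (3 counts of its total). The level was 6.46 ± 8.04 CPM in KO and 3.37 ± 3.22 CPM in WT (SD, n = 4 and 7), and KO M456 at 18 CPM was the highest library. The fit put KO higher by 2.36 ± 0.77 on the log2 scale (SE; edgeR adjusted p = 0.0374). The call was lost in 11 of 25 alternative fits, and the adjusted p over all 25 ranged from 0.0102 to 0.748. The gene (ENSMUSG00000061524) lies on chromosome 14 from 122475384 to 122480328.

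Pax6, a paired box factor of the rhombic lip lineage that unipolar brush cells also hold, did not pass the test. It had 9.52, 13, 22.6 and 22.4 CPM in KO F371, M374, M390 and M456, against 10.3 to 28.2 CPM (median 21.4) in WT. The groups overlapped throughout, with a fitted log2 fold change of 0.13 ± 0.29 (SE; edgeR adjusted p = 0.769). A fit with no batch term gave -0.26. Pax6 (ENSMUSG00000027168, chromosome 2, 105668896 to 105698410) overlaps Pax6os1 and Elp4 in RefSeq, so its reads are uncertain in the same way as those of Zic1.

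The upstream windows of the 3 transcription factor genes Neurod1, Etv1 and Zic1, which were called higher together, are given for their E-boxes, the binding motif of basic helix-loop-helix proteins such as Neurod1. Each window runs from 250 bases before to 50 after a gene start in RefSeq (GRCm38.p6), is written 5′ to 3′ on the gene's strand, and has every CANNTG in capitals. The windows are chr2:79456587-79456886 on the minus strand for Neurod1, chr12:38783461-38783760 on the plus strand for the downstream start of Etv1, and chr9:91365719-91366018 on the minus strand for Zic1.
Neurod1: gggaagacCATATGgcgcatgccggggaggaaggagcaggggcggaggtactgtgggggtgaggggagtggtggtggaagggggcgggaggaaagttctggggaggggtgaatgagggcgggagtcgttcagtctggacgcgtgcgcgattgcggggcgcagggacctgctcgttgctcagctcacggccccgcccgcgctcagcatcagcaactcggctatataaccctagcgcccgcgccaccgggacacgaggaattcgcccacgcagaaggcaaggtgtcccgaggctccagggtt
Etv1: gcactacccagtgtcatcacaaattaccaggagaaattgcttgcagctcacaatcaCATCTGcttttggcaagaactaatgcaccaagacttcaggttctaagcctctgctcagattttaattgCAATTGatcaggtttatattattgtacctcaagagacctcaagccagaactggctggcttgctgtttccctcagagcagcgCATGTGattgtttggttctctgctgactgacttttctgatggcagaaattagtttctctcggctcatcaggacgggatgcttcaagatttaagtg
Zic1: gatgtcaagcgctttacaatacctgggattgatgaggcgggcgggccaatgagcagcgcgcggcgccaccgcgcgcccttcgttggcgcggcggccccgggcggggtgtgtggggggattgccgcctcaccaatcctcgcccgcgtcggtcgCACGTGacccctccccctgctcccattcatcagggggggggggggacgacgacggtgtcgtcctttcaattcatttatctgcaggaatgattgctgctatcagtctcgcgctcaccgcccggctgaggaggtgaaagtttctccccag

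The motif was present in 7 of the 10 windows listed for 8 of the members, against 72.3% of all 32851 windows of 300 bases in the RefSeq table. The form CAGATG, searched on both strands and included in CANNTG, was found in 1 of the 10 windows, that of Etv1 shown above where it reads CATCTG, against 17.2% of all windows. Etv1 has a further window at its upstream start, chr12:38779832-38780131, which holds no CANNTG. Cbln1 and Zic2 had no entry. A match is a description of letters and not evidence of binding.

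The cerebellins are secreted proteins that granule cells release at parallel fibre synapses. Cbln1 binds presynaptic neurexin and bridges the synapse to the Purkinje cell, and Cbln3 needs Cbln1 for its secretion. Cbln1 had 124, 192, 63.2 and 252 CPM in KO F371, M374, M390 and M456, against 60.9 to 108 CPM (median 101) in WT. The KO libraries of batches 1 and 3 lay above all WT libraries, while M390 lay at the low end of WT, level with M386 of its batch at 65.3 CPM. On the log2 scale KO was higher by 1.04 ± 0.21 in the fit (SE; edgeR adjusted p = 0.00466), and by 1.37, -0.05 and 1.36 within the batches.

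Cbln3 had 127, 139, 124 and 351 CPM in KO F371, M374, M390 and M456, against 91.7 to 213 CPM (median 144) in WT. KO M456 alone lay above the WT range, and the other 3 KO libraries lay within it. Its log2 fold change of 0.69 ± 0.17 (SE, edgeR adjusted p = 0.0103) was the smallest among the 7 genes called, and the within-batch log2 ratios were 0.37, 0.43 and 1.05. Without the batch term it was 0.31 and did not pass (adjusted p = 0.465). Cbln1 (ENSMUSG00000031654) lies on chromosome 8 from 87468853 to 87472592, and Cbln3 (ENSMUSG00000040380) on chromosome 14 from 55878920 to 55884256.

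Among genes of glutamate signalling, Grin2c encodes the NMDA receptor subunit that mature granule cells take up and that astrocytes also make. It had 26.6, 44.9, 14.1 and 23.6 CPM in KO F371, M374, M390 and M456, against 4.79 to 19.2 CPM (median 12.4) in WT. M390 was within the WT range, and the other 3 KO libraries were above it. The fit gave a log2 fold change of 1.40 ± 0.42 (SE; edgeR adjusted p = 0.0256), and the log2 ratios by batch were 2.78, 0.73 and 0.75. Without WT M379 the fitted value was 0.79 and did not pass (adjusted p = 0.178). Grin2c (ENSMUSG00000020734) lies on chromosome 11 from 115249169 to 115267297.

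Slc17a7 encodes VGLUT1, the transporter that fills parallel fibre vesicles with glutamate. It had 23.4, 35.4, 1.88 and 107 CPM in KO F371, M374, M390 and M456, against 7.13 to 39.1 CPM (median 32.0) in WT. KO M390 was the lowest of all 11 libraries, with 8 reads, and KO M456 the highest. Its fitted log2 fold change, 1.1 ± 0.39 (SE), missed the threshold (edgeR adjusted p = 0.0518), and the log2 ratios by batch were 1.5, -1.68 and 1.67. Without batch 2 it was 1.66 and passed (adjusted p = 0.000273), and without KO M456 it was 0.33 (adjusted p = 0.795). It passed in 11 of 25 alternative fits, with an adjusted p of 0.000273 to 0.971 over all of them. Slc17a7 (ENSMUSG00000070570) lies on chromosome 7 from 45163921 to 45176139, and its span holds Mir7055.

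Fat2, a giant cadherin of the Fat family known in cerebellum from granule cells and their parallel fibres, had a negative fold change. It had 21.4, 41.0, 25.6 and 24.0 CPM in KO F371, M374, M390 and M456, against 32.6 to 72.0 CPM (median 46.3) in WT. KO M374 lay within the WT range and the other 3 KO libraries lay below it. Its fitted log2 fold change, -0.61 ± 0.30 (SE), missed the threshold (edgeR adjusted p = 0.148), and the log2 ratios by batch were -0.06, -0.46 and -1.21. It passed without the batch term (-0.83, adjusted p = 0.0388) and without KO M374 (-0.80, adjusted p = 0.0466). Without KO M456 it was -0.24 (adjusted p = 0.716), and it was 0.0299 with the library total as a covariate. Fat2 (ENSMUSG00000055333) lies on chromosome 11 from 55250609 to 55337505.

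**Figure D2:**
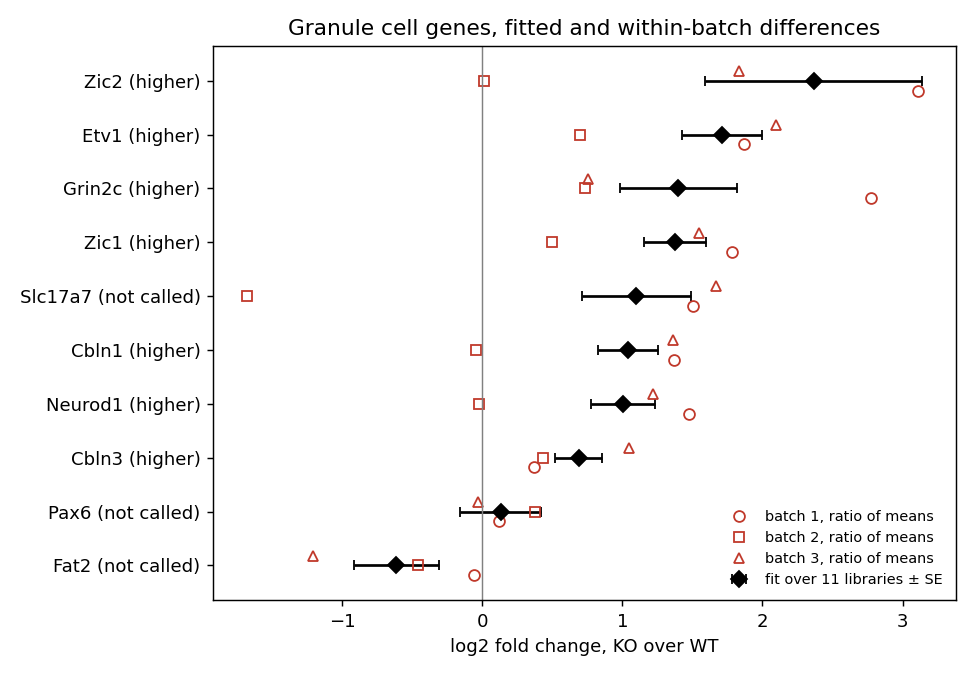
Log2 fold change of each of the 10 genes, KO over WT, as fitted over 11 libraries with batch as a term (diamonds, bars are SE) and as the ratio of mean CPM within each batch (open markers, pseudocount 0.5 CPM). The batch 2 ratio is the lowest of the 3 for 7 of the 10 genes, from Grin2c at 0.73 to Slc17a7 at -1.68, and Fat2 is the gene with a fitted value below 0.

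The size of the difference varied by batch. In batch 2, with 1 library a side and totals of 4.20 and 4.34 M reads in KO and WT, the log2 ratios ran from -1.68 for Slc17a7 to 0.73 for Grin2c. In batch 1 they ran from -0.06 for Fat2 to 3.11 for Zic2, and in batch 3 from -1.21 for Fat2 to 2.10 for Etv1. The size of the Zic2 ratio in batch 1 depends on the pseudocount of 0.5 CPM, since WT M379 had 0 reads of Zic2. Cbln3, Etv1, Grin2c, Zic1 and Zic2 had a positive ratio in all 3 batches, though that of Zic2 in batch 2 compares 1 read with 1 read. A positive ratio in all 3 batches was found for 23.5% of all genes tested. Fitted in batch 3 alone, a fit chosen after the data were seen, 7 of the 10 genes were called higher (Neurod1, Cbln1, Cbln3, Etv1, Zic1, Zic2 and Slc17a7) and 1 lower (Fat2, -1.21 ± 0.39, SE, edgeR adjusted p = 0.0426), against 11.7% of all genes higher. That fit rests on KO M456 as the single KO library, assumed to vary like the 5 WT libraries, with 4 residual degrees of freedom. In batch 1 alone, with 1 residual degree of freedom, Zic1 was the 1 gene called (1.76 ± 0.37, SE, edgeR adjusted p = 0.0497), against 1.78% of all genes higher. Batch 2, with 1 library of each kind, has no residual degrees of freedom and gave no test.

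The 10 genes did not keep the same proportions in both groups. Fat2 made up 4.12% ± 1.74 of their summed CPM in KO and 10.0% ± 1.99 in WT (SD, n = 4 and 7), with ranges of 1.86% to 6.0% and 7.41% to 14% that did not overlap. Etv1 made up 13.5% ± 2.92 in KO and 7.98% ± 1.27 in WT, with ranges of 10.1% to 17.1% and 5.91% to 9.43% that did not overlap either. Zic1 made up 12.8% ± 1.40 in KO and 8.85% ± 1.26 in WT, and the ranges overlapped by WT M386 at 11.4%. Neurod1, at 14.6% ± 1.09 in KO and 13.4% ± 1.95 in WT, and Cbln1, at 19.8% ± 3.60 and 18% ± 2.81, differed between the groups by less than the SD in WT. Shares are of reads and not per length, so they compare a gene between libraries and not the genes with each other. These shares were not tested and not adjusted for batch. They also depend on each other, since a larger share of 1 gene lowers those of the rest. No matching frequency of non-overlap over all genes was computed for them.

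**Figure D3:**
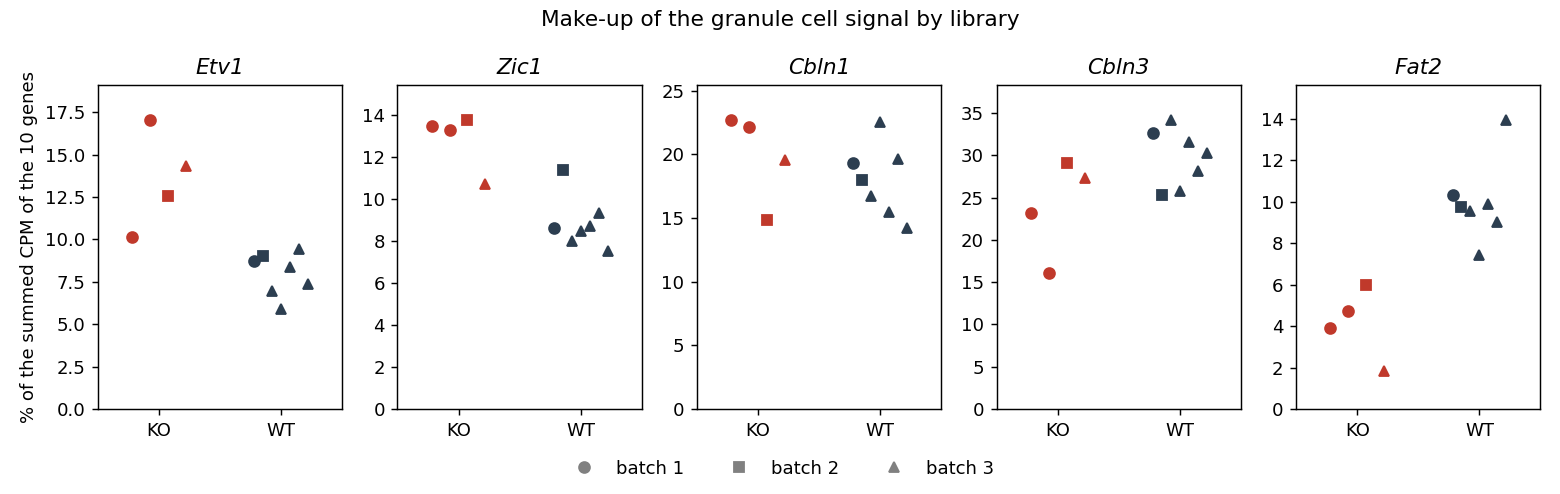
Share of the summed CPM of the 10 granule cell genes (percent, axes from 0) taken by Etv1, Zic1, Cbln1, Cbln3 and Fat2 in each library, KO left and WT right, with the marker shape giving the batch. The ranges of Etv1 (KO 10.1% to 17.1%, WT 5.91% to 9.43%) and Fat2 (KO 1.86% to 6.0%, WT 7.41% to 14%) do not overlap, in opposite directions. The shares were not tested and not adjusted for batch.

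Agreement between the genes was examined over the 7 WT libraries, since KO and WT could form separate clusters. All 45 pairs of the 10 genes had a positive Pearson r of log2 CPM, with a median of 0.67 and a range of 0.19 to 0.94. The median Spearman rho was 0.57. By an exact permutation test of Pearson's r 13 pairs had an unadjusted p under 0.05 and 3 passed after Benjamini-Hochberg adjustment over 45 pairs, and for Spearman's rho 0 passed. The 3 pairs were Grin2c with Zic2 (r = 0.918, rho = 0.893, exact permutation p = 0.000992 and 0.0123, adjusted p = 0.0223 for r), Cbln1 with Zic2 (r = 0.903, rho = 0.893, exact permutation p = 0.000794 and 0.0123, adjusted p = 0.0223) and Cbln3 with Slc17a7 (r = 0.911, rho = 0.929, exact permutation p = 0.00238 and 0.00675, adjusted p = 0.0357). Without the 2 libraries farthest from the median of the gene named first, r was 0.755 for Grin2c with Zic2, 0.567 for Cbln1 with Zic2 and 0.872 for Cbln3 with Slc17a7. Etv1 with Pax6 had the lowest r. The agreement depended on which libraries were kept. Without WT M379 the median r was 0.47, with 40 of 45 pairs positive. Leaving out any other single WT library gave a median r of 0.61 (without M477) to 0.78 (without M476), with 45 of 45 pairs positive. In the 5 WT libraries of batch 3 alone 29 of 45 pairs were positive, with a median r of 0.14, and without the 2 libraries farthest from the median of one gene of each pair 35 were positive, with a median r of 0.39. Batches 1 and 2 have 1 WT library each and give no value, so a batch cannot be told apart from its single WT library.

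**Figure D4:**
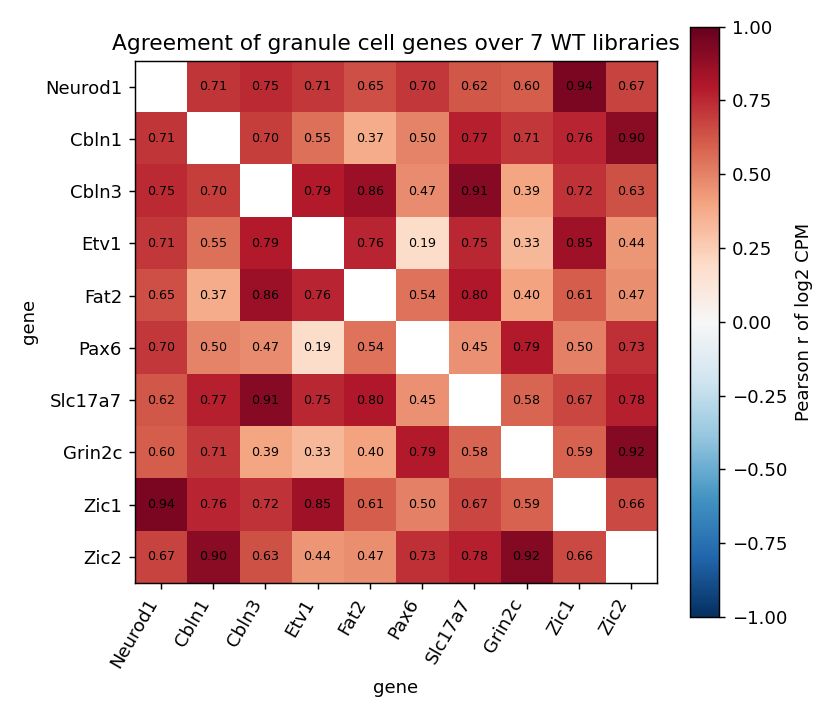
Pearson r of log2 CPM for each pair of the 10 granule cell genes over the 7 WT libraries (colour scale from -1 to 1, the same value on both sides of the diagonal). All values are positive, from 0.19 for Etv1 with Pax6 to 0.94 for Neurod1 with Zic1.

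Library depth differed with genotype, and its part in the fold changes was not separated from genotype. KO M456, the library with the highest summed level of the 10 genes, was also the shallowest, with 2.58 M reads. Over the 7 WT libraries the Pearson r of log2 CPM with the log2 library total was positive for all 10 genes, from 0.14 for Cbln1 to 0.80 for Fat2. For Fat2 rho was 0.86 and the exact permutation p was 0.0423 for r and 0.0238 for rho, and after adjustment over the 10 genes the p for r was 0.418, so none passed. Without the 2 libraries farthest from the median total r was 0.31 to 0.87. In the 5 WT libraries of batch 3 alone r ran from -0.81 for Zic2 and -0.71 for Cbln1 to 0.71 for Fat2. With every library thinned to the total of KO M456, 8 of the 10 genes were called higher.

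Other genes of granule cells, from a list of 20 that holds none of the 10, were called higher in part. That list, too, was chosen with earlier results of these data known, so it is not independent of them. Of 18 tested, 9 rose and 0 fell, against 10.9% of all genes higher and 13.4% lower. The median log2 fold change of the 18 was 0.80, and 16 were positive. At an unadjusted p under 0.05 edgeR had 14 higher and 0 lower, and DESeq2 called 13 higher and 0 lower. The smallest p-values were those of Neurod2, a relative of Neurod1 (1.34 ± 0.23), the potassium channel gene Kcnd2 (0.83 ± 0.16), the Rac regulator gene Chn2 (0.85 ± 0.17) and Calb2, which encodes the calcium buffer calretinin (0.94 ± 0.20; log2, SE, edgeR adjusted p = 0.00257, 0.00337, 0.00417 and 0.00536). Neurod2 had 50.2 ± 33.6 CPM in KO and 24.3 ± 6.62 CPM in WT, and Kcnd2 had 217 ± 63.5 CPM in KO and 133 ± 20.4 CPM in WT (SD, n = 4 and 7). Gabra6, the GABA-A receptor subunit gene best known as a granule cell marker, had 69.9 ± 33.1 CPM in KO and 46.2 ± 17.5 CPM in WT and did not pass (0.80 ± 0.31, edgeR adjusted p = 0.0722). Barhl1 and Uncx had too few reads to be tested. Without KO M456, where calls over all genes fell as given above, 0 of 18 were called by edgeR (8 higher and 0 lower at an unadjusted p under 0.05) and 5 by DESeq2, and the median was 0.52 by edgeR with 15 of 18 positive. Without WT M379 4 were called by edgeR, and without the batch term 4, where 12.2% of all genes were higher.

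Relatives of the 10 genes by family were called higher in 5 of 12 cases tested, with 9 of 21 too rare to test, against 10.9% of all genes called higher. Among them, Zic5 rose by 1.6 ± 0.39 (18.5 ± 11.7 CPM in KO, 7.39 ± 2.83 CPM in WT) and Zic4 by 1.05 ± 0.36 (13.6 ± 10.5 and 8.55 ± 2.51 CPM in KO and WT; edgeR adjusted p = 0.00936 and 0.0438). Neurod2 has been given above. Grin2b, the NMDA receptor subunit of immature granule cells, rose by 2.57 ± 0.72 (8.29 ± 6.45 CPM in KO, 2.79 ± 1.83 CPM in WT, edgeR adjusted p = 0.0196). Grin1, the obligatory NMDA receptor subunit, had a log2 fold change of -0.47 ± 0.17 and did not pass (edgeR adjusted p = 0.0532).

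On the Purkinje cell side of the parallel fibre synapse the differences were smaller. Of 14 genes of this synapse tested, 1 rose and 3 fell, against 10.9% higher and 13.4% lower of all genes, with a median log2 fold change of -0.08. The neurexin gene Nrxn3 rose by 0.27 ± 0.09, and the scaffold genes Shank2, Shank1 and Homer3 fell by 0.53 ± 0.12, 0.50 ± 0.13 and 0.39 ± 0.11 on the log2 scale (SE, edgeR adjusted p = 0.0369, 0.00622, 0.0136 and 0.0171).

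Markers of some other cell types were also called higher in KO, to be read against the 10.9% of all genes tested that were called higher. For Bergmann glia and astrocytes 8 of 14 genes rose, and their summed level was 734 to 1694 CPM in KO and 626 to 949 CPM in WT. Gjb6, a gap junction gene of astrocytes, rose by 2.09 ± 0.31 and Gdf10 of Bergmann glia by 1.71 ± 0.29 (log2, SE, edgeR adjusted p = 0.00206 and 0.00241). For interneurons and unipolar brush cells 6 of 11 tested rose, with summed levels of 593 to 912 CPM in KO and 462 to 589 CPM in WT that did not overlap, and the list shares Calb2 with the granule cell list. For oligodendrocytes 2 of 11 rose, among them Cldn11 (1.36 ± 0.34), with sums of 321 to 970 CPM in KO and 288 to 718 CPM in WT. For microglia 3 of 8 rose, Laptm5, C1qa and Csf1r (sums of 23.7 to 119 CPM in KO and 36.2 to 63.9 CPM in WT), for endothelial and mural cells 1 of 9 tested, Cldn5, a share close to that of all genes (24.0 to 128 CPM in KO and 20.2 to 134 CPM in WT), and for choroid plexus Enpp2 and Otx2 of 5 (268 to 613 CPM in KO and 273 to 428 CPM in WT). No gene of these lists was at 0 over all libraries of a group. Zic1 and Zic2 are also made by interneurons, Pax6 and Neurod1 by unipolar brush cells and Grin2c by astrocytes, and the part of these cells in the differences of the 10 genes was not tested.

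**Figure D5:**
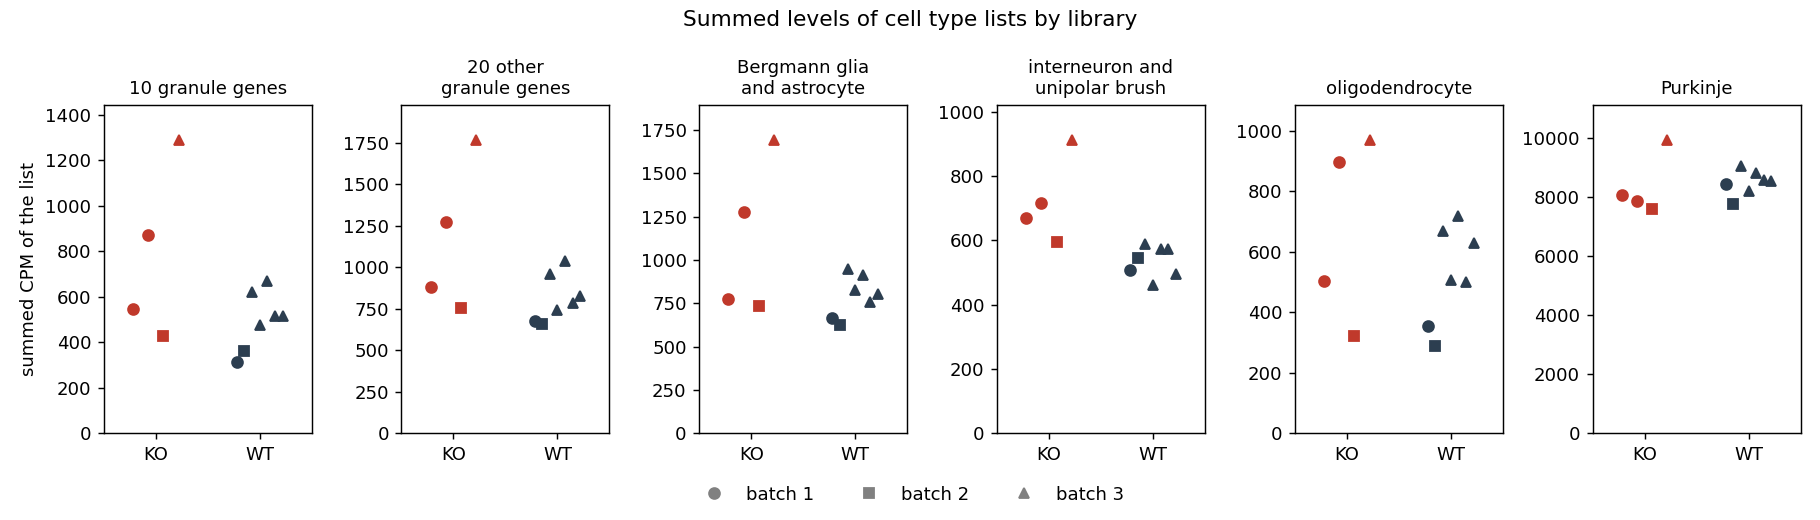
Summed level (TMM-scaled CPM, linear axes from 0) of the 10 granule cell genes, of 20 other granule cell genes and of marker lists for 4 further cell types in each library, KO left and WT right, with the marker shape giving the batch. The sum of the 10 genes is 427 to 1289 CPM in KO and 315 to 670 CPM in WT, while that of the Purkinje list is 7577 to 9934 CPM in KO and 7777 to 9041 CPM in WT.

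The genes whose levels most resembled the mean of the 10 over the 11 libraries were Cdr1os, Bicd1, Gria4, Reep5, Cspg5, Tulp4, Kif1b and Samd14, with a Pearson r of 0.976 to 0.935 among 11625 genes of at least 5 CPM. This likeness is a description, since the points share batch, depth and genotype. Gria4, an AMPA receptor subunit gene, had 42.7 ± 22.8 CPM in KO and 27.3 ± 11.1 CPM in WT. The most alike gene, Cdr1os, had 218 ± 72.7 CPM in KO and 182 ± 33.7 CPM in WT (SD, n = 4 and 7).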

How the data were processed

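The series holds 1 library of ribosome-bound RNA for each of 11 mice. The deposited files hold read counts per gene, whole numbers made with STAR and HTSeq against GRCm38, per the submitters' processing notes. The sources used here do not give versions, strand setting or duplicate removal. The authors' counts carry no normalization. The 5 summary lines that name no gene were left out. Reads outside genes made up 9.06% ± 2.06 of counted alignments in KO and 7.16% ± 0.557 in WT (SD).

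Genes kept by filterByExpr (13375) entered edgeR 4.0.16 (R 4.3.3) with TMM factors, batch and genotype as terms, 7 residual degrees of freedom and two-sided p-values adjusted by Benjamini-Hochberg over all of them, with a threshold of 0.05. An SE is the log2 fold change divided by the root of F. Log2 CPM used a prior count of 2. Between the closest 2 libraries chi-square was 2.40 for each degree of freedom, above sampling noise. The fit was checked on simulated counts. DESeq2 1.42.0 and limma 3.58.1 were alternatives. The members and lists were chosen with earlier results of these data known. Named genes were the 10 members, up to 4 of each other list with the smallest p, and the 8 most alike; some of these are not reported here. Positions and promoter windows are from RefSeq (GRCm38.p6).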

Additional observations from a re-analysis of the deposited data

Results flagged for a closer look

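Cbln3 in KO M456 stood far from the other KO libraries, at 351.5 CPM against 139.4 CPM in the nearest, a gap of 0.933 of the group's range where 0.829 is the critical value for 4 libraries. It was the single value picked out among 26 groups of libraries examined, and chance picks out about 1 in 20.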

How the results depend on the processing

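Calls of the 10 genes were recomputed under 25 alternatives, of which batch 1 alone and batch 3 alone were chosen after seeing the data. The count of genes called higher was 7, and 5 to 8 under scalings, filters, tools, thinning, animals tagged M only, no batch term (no replicate block, 5) without batch 2 and in batch 3 alone. It was 1 in batch 1 alone. With the library total as a covariate it was 0. Leaving out 1 library gave 0 to 8, with 0 without KO M456 and 3 without WT M379. For the 20 other granule cell genes the count was 9, 4 without the batch term, 1 in batch 1 alone, 0 with the library total, and 0 to 12 when 1 library was left out. The cause was not tested. With the library total as a covariate edgeR called 0 of all genes. DESeq2 called 99 of all genes and 0 of the 10.

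Of 250 refits of single genes 200 kept direction and side of the threshold, 33 lost the call, 14 gained it and 3 turned sign. The last were Pax6 without the batch term (-0.26) and in batch 3 alone (-0.014), and Fat2 with the library total (0.0299). The number of positive pairs among WT libraries was 45, and 40 to 45 when 1 library was left out. No paired analysis was possible because replicates are animal tags that no groups share. Without a filter the median log2 fold change of all genes moved to -0.211. Genes with few reads, such as Zic2, are limited by depth.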
